A study of Mus musculus with 13 samples.

Results

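The 277 fragments described here are short sequences of mouse 18S ribosomal RNA (rRNA), taken from a deposited small RNA table of 18385 unique sequences. They were chosen by annotation alone: every sequence of the rRNA class that was placed on the 45S pre-rRNA record with a start between positions 4008 and 5877. The rRNA class held 9798 sequences and the 45S record 7013 of them. The table covered 3 kinds of mouse cell. HOXB8 cells, 1 myeloid progenitor line, were kept undifferentiated by 1 µM β-estradiol and given 100 ng/ml SCF. Differentiated HOXB8 cells are the same line in the same medium, SCF included, after withdrawal of the estradiol, and the neutrophils were taken fresh from the marrow of wild-type mice. For both HOXB8 and differentiated HOXB8 cells the labels describe 36 h of feeding with 100 µM Ac4ManNAz, a sugar from which the cell makes sialic acid that carries an azide. Gal at 10 µM and GalNAc at 100 µM were added with it. The labels do not say for each neutrophil library whether those cells had been fed it.

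Each kind of cell had an input library of gel-purified RNA below 300 nt and a library of RNA captured on beads of wheat germ agglutinin (WGA), a lectin that binds sialic acid and N-acetylglucosamine. HOXB8 and differentiated HOXB8 cells also had a biotin library, in which biotin was clicked onto the azide and captured on streptavidin. Differentiated HOXB8 cells alone had a biotin library digested with PNGase F, an enzyme that removes N-glycans from protein. Each of the 9 groups was 1 library, so no comparison of 2 libraries has a test, and the intervals given cover counting error only. No molecular identifiers were available to separate copies made by PCR from separate molecules, so these intervals are too narrow. The labels describe the gel step for the inputs only, and its part in any difference between a captured library and its input cannot be told apart from that of the capture.

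18S rRNA is the RNA of the small ribosomal subunit, where messenger and transfer RNA meet during decoding. It is cut, together with 5.8S and 28S rRNA, out of 1 long precursor, the 45S pre-rRNA, and the spacers around it are degraded. Small RNA libraries hold pieces of mature rRNA, which can arise from cleavage inside the cell or from breakage during preparation, and the reads do not tell these apart.

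The fragments are named by their first and last position on the 45S record. All lay on the forward strand. The sequences below carry most of what follows and are written 5′ to 3′ as DNA letters, as in the deposited table. The first 3 were each among the 3 highest of at least 1 captured HOXB8 library. They came from 1 site in the 3′ part of 18S, with the shared bases in capitals.
Fragment 5101-5116: aCTGGCGATGCGGCGG
Fragment 5101-5118: aCTGGCGATGCGGCGGcg
Fragment 5102-5118: CTGGCGATGCGGCGGcg
The next 3 came from a site near the 3′ end of 18S and led the inputs or differed from them, again with shared bases in capitals. Of these, 5747-5769 was also among the 3 highest of both captured HOXB8 libraries.
Fragment 5747-5769: ctCGGATCGGCCCCGCcggggtc
Fragment 5749-5769: CGGATCGGCCCCGCcggggtc
Fragment 5747-5762: ctCGGATCGGCCCCGC
A site near the 5′ end gave 3 fragments that were high in the HOXB8 inputs, with shared bases in capitals.
Fragment 4176-4194: taATACATGCCGACGGGCG
Fragment 4177-4194: aATACATGCCGACGGGCG
Fragment 4178-4194: ATACATGCCGACGGGCG
The middle of 18S gave fragments that ended at position 4873 or ran past it, shown because their order differed between the neutrophil and HOXB8 libraries, with shared bases in capitals.
Fragment 4834-4873: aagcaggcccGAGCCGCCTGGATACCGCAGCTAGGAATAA
Fragment 4844-4900: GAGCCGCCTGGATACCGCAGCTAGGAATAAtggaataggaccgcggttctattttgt
A fragment of the same site stood almost only in the inputs, and its capital marks the base at which it differed from 4834-4873.
Fragment 4840-4873: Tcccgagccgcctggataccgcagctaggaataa
Other sites gave fragments that stood out by their level or their ratio to input and are shown in lower case throughout.
Fragment 5328-5345: ggtggtggtgcatggccg
Fragment 4467-4482: catccaaggaaggcag
Fragment 4306-4328: gataacctcgggccgatcgcacg
Fragment 4509-4564: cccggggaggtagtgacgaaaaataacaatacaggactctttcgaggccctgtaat
Fragment 4324-4400: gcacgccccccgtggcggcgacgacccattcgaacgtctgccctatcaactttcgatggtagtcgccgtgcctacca

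The fragments were 16 to 83 bases long with a median of 20, and 134 of the 277 (48.4%) were shorter than 20 bases. Their median GC content was 73.7%, within a range of 33.3% to 94.1%. The first fragment inside the range, 4041-4059, started 33 bases after its first position, and the last, 5785-5802, ended 75 bases before its last position. None therefore held the first or the last base of the range. The nearest sequence before the range started at position 4007 and reached no more than 16.5 RPM (reads scaled to the library's total reads) in any library, and the nearest after it started at 5975 and reached no more than 65.6 RPM. The bases of 4007-4025 also open a sequence on another rRNA record that runs on through the bases of 4041-4059. It is thus joined there to sequence of the set, although the range leaves it out and it was counted below with the 5′ external spacer.
Just before the range, 4007-4025: tacctggttgatcctgcca
Just inside the range, 4041-4059: tctcaaagattaagccatg
Just inside the range, 5785-5802: cggagcgctgagaagacg
Just after the range, 5975-5990: tgtggagcgaggtgtc

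The set was nested rather than scattered. Of the 277 fragments, 194 lay wholly inside a longer fragment of the set, 202 shared their end with another, and 41 shared neither start nor end. There were 140 distinct starts and 129 distinct ends. Overlapping fragments joined into 23 stretches, which covered 1121 of the 1870 positions (59.9%). Fragments of 1 stretch share sequence and are not independent of each other. There were 20 fragments with reads in all 9 libraries and 4 with reads in only 1 library. At least 1 library reached 100 RPM for 22 fragments and 10 RPM for 217, while 60 stayed below 10 RPM in every library.

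The values of this set are not the level of 18S rRNA in the libraries, because most 18S sequence in the table was filed under other rRNA records. Among the 2785 rRNA sequences on records other than 45S, 1532 shared a run of 16 bases or more with at least 1 of the 277, over 35 records. Their summed RPM was 3.01 times that of the set in the HOXB8 biotin library and 399 times in the neutrophil WGA library. In HOXB8 cells these sequences summed to 18467 RPM for biotin and 24514 RPM for WGA, against 63983 RPM in the input. They were thus below input there, where the 277 were above it (6135 and 8098 against 3894 RPM). In differentiated HOXB8 cells the input held 155121 RPM of them. The captured libraries there held 18403 RPM with PNGase F, 18035 RPM for biotin and 18837 RPM for WGA. In the neutrophils they summed to 242246 RPM after WGA capture and 53175 RPM in the input, against 608 and 464 RPM for the 277. Of the 277, 87 occurred whole inside a sequence on another record and 190 did not. The table gives no rule for which record a sequence was placed on, so all results below concern only the sequences that were placed on 45S.

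The libraries held 3110323 to 9922659 reads, of which 39.3% to 96.7% were in the table, with the lowest share in the HOXB8 input. The deposited table is named as one of non-miRNA sequences, but it held 14 sequences of mir-223, a miRNA of granulocytes. These marked the kinds of cell in the inputs, with a summed 3810 RPM in neutrophils, 530 RPM in differentiated HOXB8 cells and 4.54 RPM in HOXB8 cells. In the neutrophil WGA library they were at 0.202 RPM. The sums need not be the full level of the miRNA in the libraries.

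The 18S fragments summed to 6135 RPM in the HOXB8 biotin library and 8098 RPM in the HOXB8 WGA library, against 3894 RPM in the HOXB8 input. In differentiated HOXB8 cells they summed to 3434 RPM after biotin capture with PNGase F, 3420 RPM after biotin capture and 2419 RPM after WGA capture, against 4099 RPM in the input. Neutrophils had the least, with 608 RPM in the WGA library and 464 RPM in the input. The captured libraries were thus above the input in HOXB8 cells and in neutrophils and below it in differentiated HOXB8 cells.

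The ratio to input was 1.58 for HOXB8 biotin (95% counting interval 1.55 to 1.61) and 2.08 for HOXB8 WGA (2.04 to 2.12). For differentiated HOXB8 cells it was 0.838 with PNGase F (0.821 to 0.855), 0.834 for biotin (0.818 to 0.851) and 0.590 for WGA (0.578 to 0.603). The neutrophil WGA ratio was 1.31 (1.24 to 1.39). Over the 3 WGA pairs the mean log2 ratio was 0.23, and an exact two-sided sign-flip permutation test gave p = 0.75, where 3 pairs allow no p below 0.25. The direction in HOXB8 cells depended on the scale. As a share of the rRNA class the fragments made up 1.504% of the HOXB8 biotin and 1.74% of the HOXB8 WGA library, against 1.88% of the HOXB8 input. On that scale the log2 ratios were -0.32 for biotin and -0.12 for WGA, where RPM gave 0.66 and 1.06. After differentiation the share was 0.591% with PNGase F, 0.591% for biotin and 0.443% for WGA, against 0.872% in the input, so both scales put the captured libraries lower. The neutrophil shares were 0.0843% for WGA and 0.0688% for input.

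**Figure D1:**
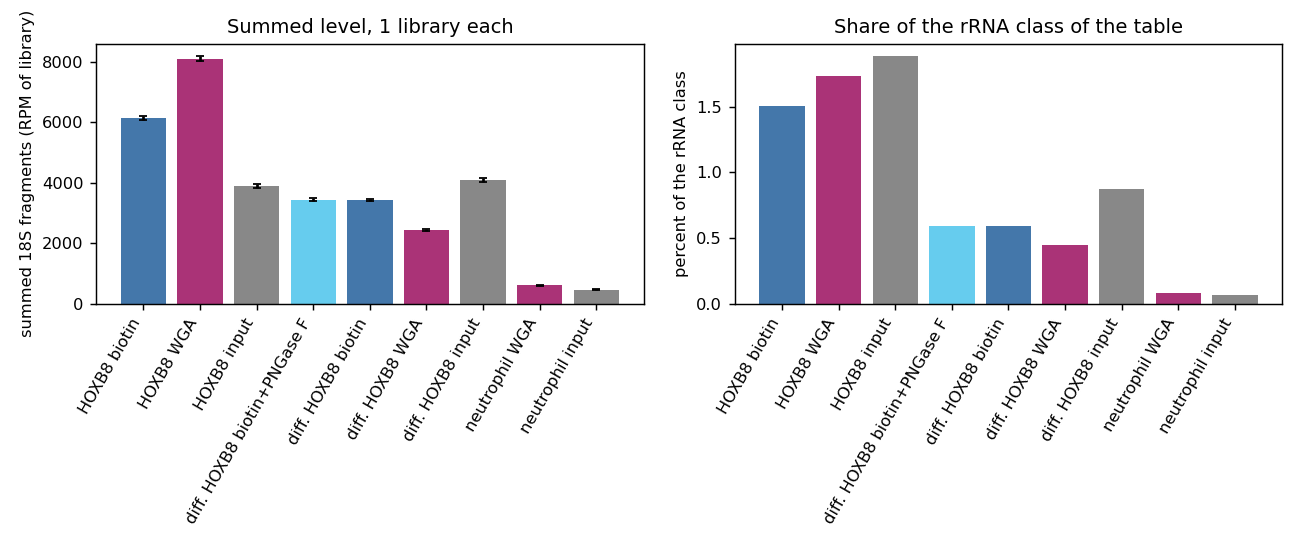
Summed level of the 277 fragments in RPM of the library with exact 95% counting intervals (left) and as percent of the rRNA class of the table (right), 1 bar per library. The HOXB8 captured libraries stand above their input on the left (6135 and 8098 against 3894 RPM) and below it on the right (1.504% and 1.74% against 1.88%).

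The rest of the 45S record behaved differently from the 18S range in some of the same libraries. The WGA to input ratio was 2.08, 0.590 and 1.31 for 18S in HOXB8 cells, differentiated HOXB8 cells and neutrophils, against 4.25, 5.54 and 19.1 for the 5′ external spacer, the transcribed leader in front of 18S. The log2 ratio of 18S minus that of this spacer was -1.03, -3.23 and -3.86 in the same order of cells, below 0 in 3 of 3 pairs (exact sign-flip permutation p = 0.25, the smallest that 3 pairs allow). Sequences starting in the range usually given to 28S on this record had ratios of 3.59, 2.53 and 0.375. Against 28S the 18S log2 ratio differed by -0.79 in HOXB8 cells, -2.10 in differentiated HOXB8 cells and 1.803 in neutrophils (exact sign-flip permutation p = 0.75).

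Single fragments moved both ways in each library, as did the table at large. The counts below take fragments at 10 RPM or more in either library and call a 2-fold difference on log2(RPM + 1), a scale that understates the change of low values. In HOXB8 cells 118 of the 277 reached that level for biotin, of which 73 were higher and 29 lower than in the input, where 54.1% of all 6854 sequences at that level were higher and 37.9% lower. For HOXB8 WGA, 112 of 154 were higher and 31 lower, with 64.4% and 28.2% over all sequences. In the differentiated HOXB8 libraries with PNGase F, 51 of 96 were higher and 31 lower, with 47.6% and 44.6% over all.

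For differentiated HOXB8 biotin 52 of 97 were higher and 34 lower, with 49.3% and 42.9% over all, and for WGA 52 of 95 were higher and 37 lower, with 53.3% and 40.7% over all. In neutrophils only 21 fragments reached 10 RPM, of which 12 were higher after WGA capture and 5 lower, with 44.5% and 45.3% over all. The members' shares were thus 61.9%, 72.7%, 53.1%, 53.6%, 54.7% and 57.1% higher in this order of libraries, and some were near the share over the table (54.7% against 53.3% for differentiated HOXB8 WGA). On the rest of the 45S record larger shares were higher than input in the 5 captured libraries of HOXB8 and differentiated HOXB8 cells, 59.3% to 81.2% in the range of 28S and 84.7% to 92.9% in the 5′ external spacer. In neutrophil WGA they were 9.33% and 94.7%. The median log2 difference of the 18S fragments was 1.84 for HOXB8 biotin and 3.08 for HOXB8 WGA, against 1.62 and 2.87 over all sequences. It was 1.296 for PNGase F, 1.28 for biotin and 1.47 for WGA in differentiated HOXB8 cells, against 0.38, 0.82 and 1.65 over all sequences. In neutrophils it was 1.49, against -0.08 over all sequences. Their median was thus above 0 in differentiated HOXB8 cells while their sum was below the input. Without the 10 most abundant fragments of either library, the log2 ratio of the sums there was 0.33 with PNGase F, 0.20 for biotin and -0.16 for WGA.

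**Figure D2:**
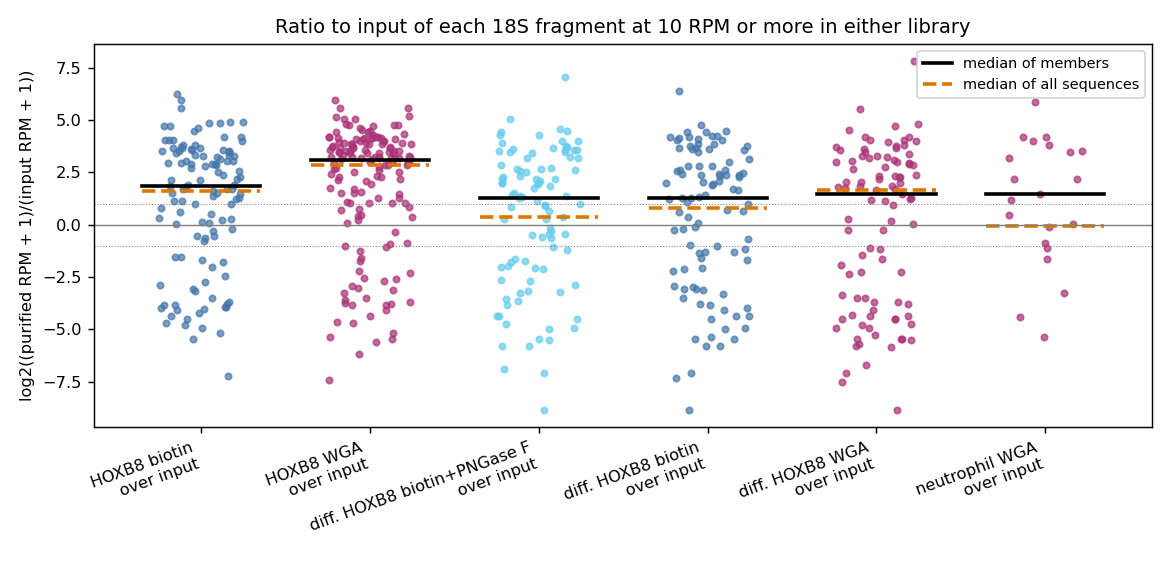
Ratio to input of every fragment at 10 RPM or more in either library, as log2((captured RPM + 1)/(input RPM + 1)), with 1 point per fragment, the members' median as a solid line and that of all sequences as a dashed line. Points lie on both sides of 0 in every library, and the 2 medians are close in HOXB8 cells (1.84 against 1.62 for biotin) and apart in neutrophils (1.49 against -0.08).

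Reads were concentrated at few sites, and in HOXB8 and differentiated HOXB8 cells the leading site differed between captured libraries and input. Of the 23 stretches, 10 reached 100 RPM in a library. The stretch 5028-5140, with 53 fragments, held 42.3% of the set's RPM in the HOXB8 biotin library and 48.9% in the HOXB8 WGA library, against 15.4% in the HOXB8 input. With HOXB8 cells differentiated, it held 34.9% with PNGase F, 35.6% for biotin and 29.4% for WGA, against 10.6% in the input. In the neutrophils it held 0.182% of the WGA library and 6.99% of the input. There 4834-4912 led the WGA library and, level with 4294-4415, the input.

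**Figure D3:**
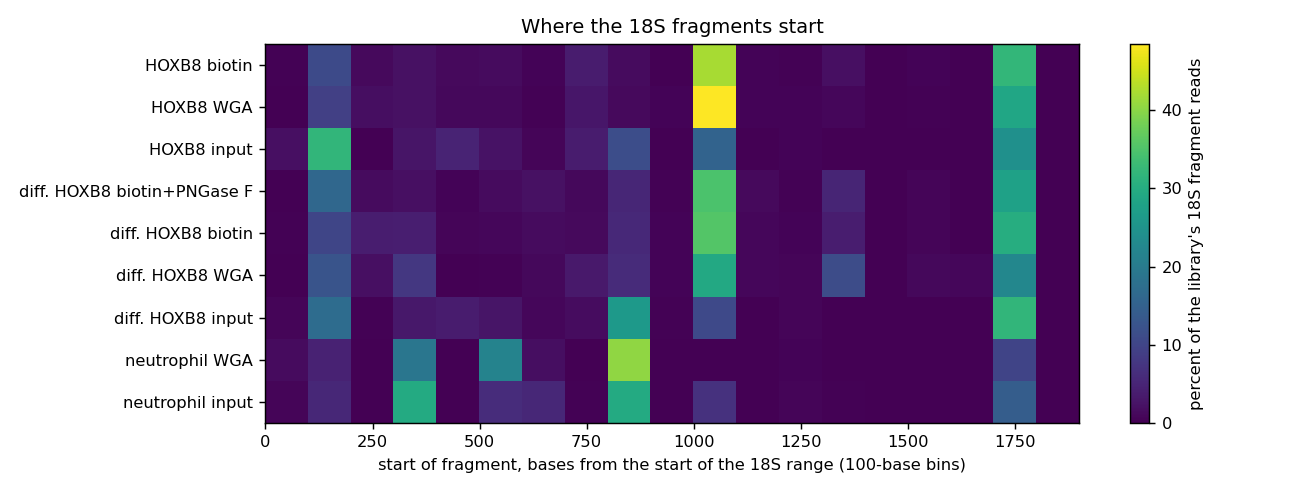
Percent of each library's 18S fragment reads by start position, in 100-base bins counted from the start of the 18S range (19 bins), 1 row per library. The bin that starts 1000 bases in is the brightest of the HOXB8 biotin (42.2%) and WGA (48.5%) rows, while the HOXB8 input row is brightest near the 5′ end (31.8%) and the neutrophil WGA row near the middle (40.5%).

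Within 5028-5140, the leading fragment of the captured HOXB8 and differentiated HOXB8 libraries was 16 bases long and ended at position 5116. Fragment 5101-5116 was at 1674 RPM in the HOXB8 biotin library and 2477 RPM in the HOXB8 WGA library, against 169 RPM in the HOXB8 input. In differentiated HOXB8 cells it was at 698 RPM with PNGase F, 747 RPM for biotin and 312 RPM for WGA, against 143 RPM in the input. In neutrophils it was at 0.605 RPM after WGA capture and 14.5 RPM in the input. It was the most abundant of the 277 in each of the 5 captured HOXB8 and differentiated HOXB8 libraries, each of which stood above its input, while in neutrophils the WGA library stood below.

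The ratio of 5101-5116 to input was 9.89 for HOXB8 biotin (9.13 to 10.7), 14.6 for HOXB8 WGA (13.5 to 15.9), 4.90 with PNGase F (4.48 to 5.36), 5.24 for differentiated HOXB8 biotin (4.80 to 5.73) and 2.19 for differentiated HOXB8 WGA (1.99 to 2.404). In neutrophils it was 23.9-fold lower (10.2 to 68.6) after WGA capture, from 6 reads. Neighbours that differ by 1 or 2 bases at an end had other ratios. Fragment 5101-5118, which has 2 more bases at the 3′ end, was at 241 and 224 RPM in the HOXB8 biotin and WGA libraries and 7.21 RPM in the input, ratios of 33.4 and 31.1. Its ratio in differentiated HOXB8 cells was 2.71 with PNGase F, 6.69 for biotin and 3.34 for WGA. The 14 fragments that ended at 5116 summed to 1807 RPM for biotin and 2821 RPM for WGA in HOXB8 cells, against 202 RPM in the input.

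The stretch near the 3′ end, 5724-5802, had the most fragments, 83, with a median GC content of 83.3%. It summed to 1965 RPM for biotin and 2321 RPM for WGA in HOXB8 cells, against 951 RPM in the input. After differentiation it summed to 956 RPM with PNGase F, 1034 RPM for biotin and 541 RPM for WGA, against 1309 RPM in the input. The neutrophil WGA library had 60.9 RPM and the input 66.6 RPM, a ratio of 0.915 (0.780 to 1.08) whose interval includes 1. In RPM the captured libraries were thus above input in HOXB8 cells only. The rRNA class rose by nearly as much there, from 206682 RPM in the input to 407826 RPM for biotin and 465951 RPM for WGA.

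Within this stretch, fragments with the same start and different 3′ ends had different ratios. Fragment 5747-5769 was at 376 and 344 RPM in HOXB8 biotin and WGA, against 297 RPM in the input, ratios of 1.27 (1.18 to 1.36) and 1.16 (1.08 to 1.25). The rRNA class rose by more between these libraries, so this fragment was below the HOXB8 input as a share of that class. In the differentiated HOXB8 libraries it was at 181 RPM with PNGase F, 218 RPM for biotin and 116 RPM for WGA, against 561 RPM in the input, where it was the most abundant of the set. Fragment 5747-5762, which lacks the last 7 bases of it, was at 140 and 248 RPM in HOXB8 biotin and WGA, against 4.27 RPM in the input, ratios of 32.7 (20.1 to 57.5) and 58.0 (35.6 to 102). With HOXB8 cells differentiated, its ratios were 7.27 with PNGase F, 5.66 for biotin and 5.74 for WGA. Fragment 5749-5769, which lacks 2 bases at the 5′ end, went the other way, with 74.2 and 50.3 RPM in HOXB8 biotin and WGA and 302 RPM in the input. Of these 3 fragments, the one with the shorter 3′ end was thus the highest relative to input and the one with the shorter 5′ end the lowest.

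The stretch 4172-4258, with 49 fragments, was lower in sum in captured libraries than in inputs. It summed to 581 RPM for biotin and 672 RPM for WGA in HOXB8 cells, against 1211 RPM in the input, and to 398 RPM with PNGase F, 202 RPM for biotin and 146 RPM for WGA in differentiated HOXB8 cells, against 668 RPM in the input. The neutrophil libraries had 0.202 RPM after WGA capture and 7.39 RPM in the input. Not all of its fragments went that way. The 9 that started at position 4203 summed to 119 and 86.4 RPM in HOXB8 biotin and WGA, against 14.4 RPM in the input. In differentiated HOXB8 cells they summed to 78.1 RPM with PNGase F, 78.2 RPM for biotin and 27.6 RPM for WGA, against 4.46 RPM in the input. Fragments of this stretch with different 3′ ends had different ratios. The 6 fragments that ended at position 4194 summed to 53.6 and 55.8 RPM in HOXB8 biotin and WGA, against 857 RPM in the input, and were 15.98-fold (14.3 to 17.9) and 15.4-fold (13.7 to 17.3) lower. In differentiated HOXB8 cells they summed to 33.8 RPM with PNGase F, 6.71 RPM for biotin and 15.8 RPM for WGA, against 403 RPM in the input. The 9 fragments that ended 8 bases further, at 4202, had ratios of 1.08 (0.974 to 1.19) and 1.72 (1.57 to 1.90) in HOXB8 cells. In differentiated HOXB8 cells they were lower than input too, with ratios of 0.868 (0.771 to 0.978) with PNGase F, 0.343 (0.298 to 0.395) for biotin and 0.314 (0.272 to 0.362) for WGA.

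Fragment 4177-4194 led that end group, with 22.4 and 14.1 RPM in HOXB8 biotin and WGA, against 372 RPM in the input. After differentiation it was at 14.7 RPM with PNGase F, 0.124 RPM for biotin (1 read) and 0 for WGA, against 182 RPM in the input. No read of it was found in the neutrophil libraries, where 3 reads would be 0.302 RPM for WGA and 0.965 RPM for input. A fragment that stood alone, 4467-4482, was also lower in captured libraries than in input, with 9.88 and 34.6 RPM in HOXB8 biotin and WGA and 175.7 RPM in the input, 0 in the 3 captured differentiated HOXB8 libraries and 134 RPM in their input, and 0 in neutrophils. Set against a floor of 3 reads per library it was at least 288-fold lower with PNGase F, at least 360-fold lower for biotin and at least 382-fold lower for WGA than in the differentiated HOXB8 input.

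The site 4834-4912, with 16 fragments, had the same direction in HOXB8 and differentiated HOXB8 cells and the opposite in neutrophils. It summed to 81.9 and 103 RPM in HOXB8 biotin and WGA, against 444 RPM in the input. In the differentiated HOXB8 libraries it summed to 175.8 RPM with PNGase F, 192 RPM for biotin and 144 RPM for WGA, against 1069 RPM in the input. In neutrophils it was at 246 RPM after WGA capture and 138 RPM in the input, a ratio of 1.79 (1.61 to 1.98). It held 40.5% of the set's RPM in the neutrophil WGA library and 29.6% in the neutrophil input, against 1.28% to 5.97% in the 5 captured libraries of HOXB8 and differentiated HOXB8 cells. Of the 16 fragments, 9 carried a base that differed from overlapping fragments. The highest sequence of this site on another rRNA record was at 68765 RPM in neutrophil WGA and 1277 RPM in the input. The ratios and shares of the site thus concern a small part of its sequence in the table.

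Fragment 4840-4873 was almost absent after capture. It had 0.157 RPM (1 read) in HOXB8 biotin and 0 in HOXB8 WGA, against 173 RPM in the input, and 0 in the 3 captured differentiated HOXB8 libraries, against 458 RPM in their input. In neutrophils it had 0 after WGA capture and 19.9 RPM in the input. Against a floor of 3 reads per library the WGA libraries were at least 318-fold, 1303-fold and 65.9-fold lower than input in HOXB8, differentiated HOXB8 and neutrophil cells. Fragment 4834-4873, 6 bases longer at the 5′ end, was lower by less in HOXB8 cells and about equal in neutrophils, with 31.8 and 42.9 RPM in HOXB8 biotin and WGA, against 104 RPM in the input, and with 49.4 and 53.0 RPM in neutrophil WGA and input.

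Fragment 4840-4873 has a different first base from 4834-4873 at that position, written G4840T with positions counted on the 45S record. Of the 4 fragments that cover position 4840, 2 have each base, so neither can be called the common one. The shares below count the reads of these 4 fragments only and leave out sequences placed on other records. T made up 16.3% in the neutrophil input (12.7% to 20.4%, exact Clopper-Pearson interval). T made up 53.1% in the differentiated HOXB8 input (51.5% to 54.7%) and 50.3% in the HOXB8 input (47.7% to 52.9%). In the captured libraries 1 read in 359 had it in HOXB8 biotin and none in the others, of 374 to 1398 reads each.

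The stretch 5320-5356 had almost no reads in the inputs. Its main fragment, 5328-5345, was at 116 and 72.4 RPM in HOXB8 biotin and WGA, against 0.534 RPM (2 reads) in the input, ratios of 216 (59.7 to 1791) and 136 (37.3 to 1124). With HOXB8 cells differentiated, it was at 131 RPM with PNGase F, 82.6 RPM for biotin and 223 RPM for WGA, against 0 in the input, so that against a floor of 3 reads it was at least 167-fold, 105-fold and 284-fold higher. In neutrophils it was at 0 after WGA capture and 1.61 RPM in the input. It was the second most abundant of the set in the differentiated HOXB8 WGA library, while of the captured libraries only neutrophil WGA had no read of it.

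Other sites nearer the 5′ end were also higher after capture. The stretch 4080-4160 was higher in all captured libraries, with 94.9 and 92.2 RPM in HOXB8 biotin and WGA and 34.2 RPM in the input. In differentiated HOXB8 cells its ratio was 3.79 with PNGase F, 3.65 for biotin and 3.77 for WGA, and in neutrophils 1.79 (1.37 to 2.37). Fragment 4306-4328 was at 16.3 and 40.2 RPM in HOXB8 biotin and WGA, against 0.801 RPM in the input, and at 26.0 RPM with PNGase F, 102 RPM for biotin and 20.03 RPM for WGA in differentiated HOXB8 cells, against 3.68 RPM in the input. Its level therefore differed 3.90-fold between the digested and undigested biotin libraries of 1 kind of cell.

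**Figure D4:**
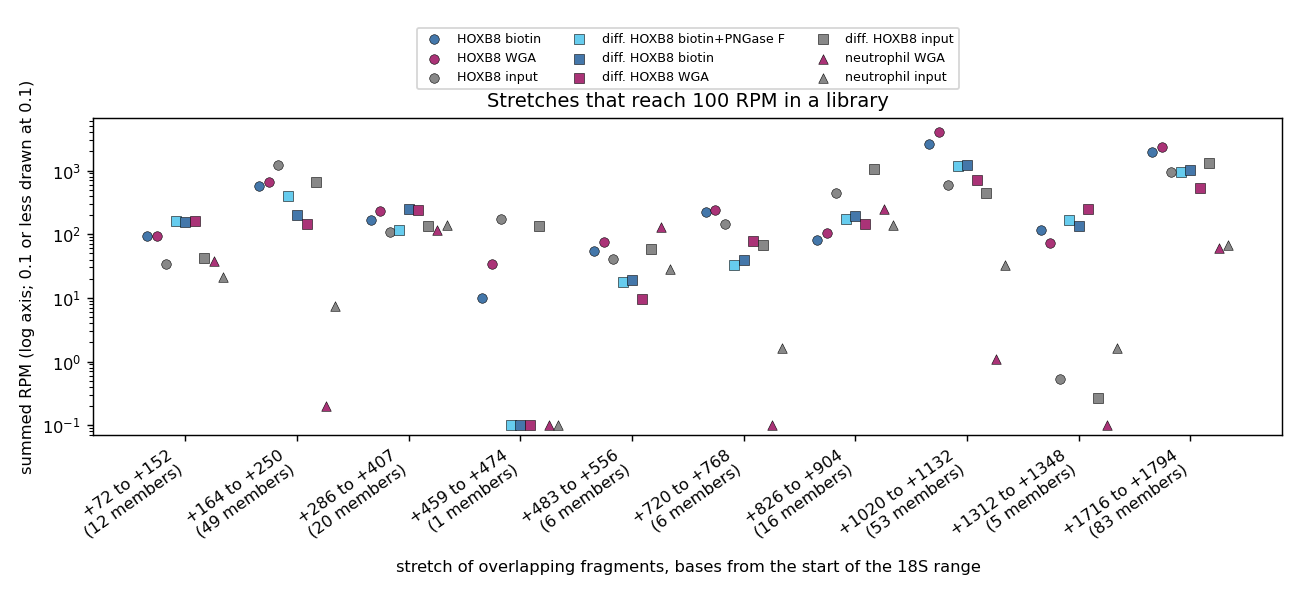
Summed RPM (log axis) of the 10 stretches of overlapping fragments that reach 100 RPM in a library, 1 point per library, with positions counted from the start of the 18S range. Captured libraries lie above their inputs in HOXB8 and differentiated HOXB8 cells at +1020 and +1312 (2596 and 3963 against 601 RPM in HOXB8 cells at +1020) and below them at +826 (81.9 and 103 against 444 RPM), while the neutrophil points run the other way.

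The neutrophil libraries were led by longer fragments, and the input shared some of them with the other cells. The 3 highest of the neutrophil input were 4324-4400, 4834-4873 and 4835-4873, and 4834-4873 was also among the 3 highest of differentiated HOXB8 biotin, at 116 RPM. The leading fragments of the WGA library were 4509-4564, at 132 RPM after WGA capture and 27.97 RPM in the input, and 4324-4400, at 88.2 RPM after WGA capture and 84.9 RPM in the input. Next came 4844-4900, at 58.0 RPM after WGA capture and 0 in the input, at least 60.2-fold higher against a floor of 3 reads. Fragment 4509-4564 had 0 reads in all 5 captured HOXB8 and differentiated HOXB8 libraries and was at 13.3 RPM in the HOXB8 input and 43.6 RPM in the differentiated HOXB8 input. Its neutrophil WGA ratio was 4.72 (3.79 to 5.93). None of these 3 fragments was among the 3 most abundant in the WGA libraries of HOXB8 or differentiated HOXB8 cells.

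The median length weighted by RPM was 17 bases in the HOXB8 biotin and WGA libraries and 19 in the input. After differentiation it was 18 bases with PNGase F, 18 for biotin and 19 for WGA, and 22 in the input. In neutrophils it was 40 bases for WGA and 35 for input. Captured libraries were thus shorter than input in HOXB8 and differentiated HOXB8 cells and longer in neutrophils.

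Fragments of 30 bases or more held 3.63% and 2.29% of the set's RPM in HOXB8 biotin and WGA, against 12.5% in the input. They held 10.5%, 10.3% and 11.6% with PNGase F, for biotin and for WGA in differentiated HOXB8 cells, against 27.1% in the input. In neutrophils they held 72.5% for WGA and 58.5% for input. The mean GC content followed the same split, with 57.7% and 63.1% in neutrophil WGA and input and 67.7% to 75.8% in the other 7 libraries. Length and base composition moved together over the libraries, and their parts in the ratios were not tested.

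**Figure D5:**
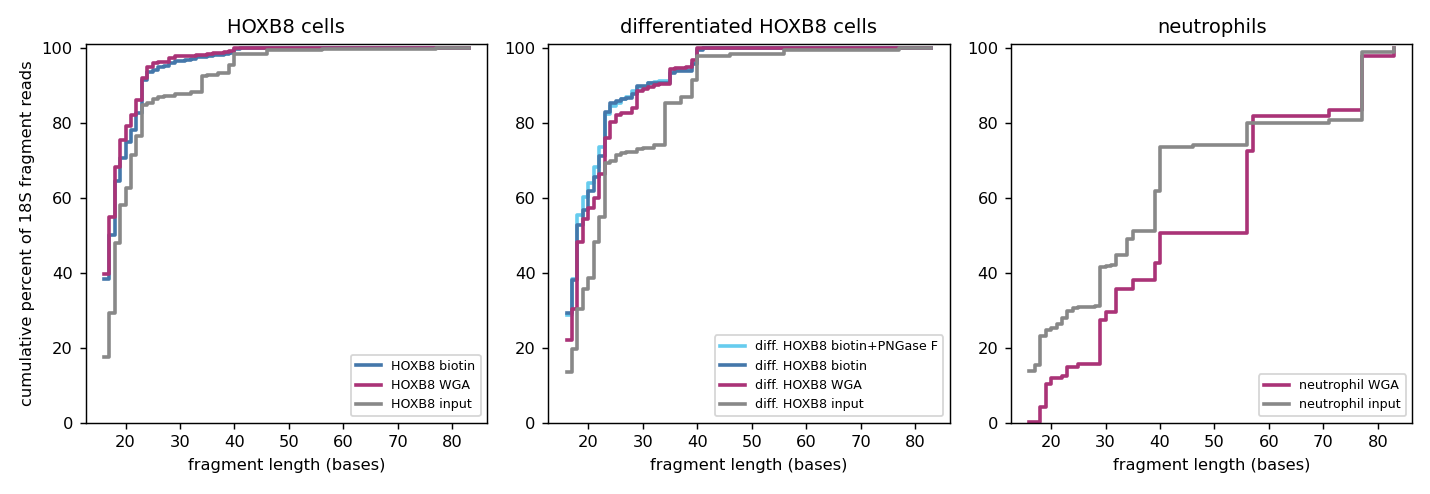
Cumulative percent of the set's RPM by fragment length in bases, 1 line per library and 1 panel per kind of cell. In HOXB8 and differentiated HOXB8 cells the captured lines rise before the input line (weighted medians of 17 against 19 and of 18 to 19 against 22 bases), and in neutrophils the WGA line rises after it (40 against 35 bases).

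Some fragments carried a base that differed from most of the fragments that overlap it. There were 31 such fragments, 24 with 1 differing base, and in 1 of those 24 that base was an N, which is an uncalled base. Of the 31, 13 had no read in any of the 3 inputs, and over the whole set 38 fragments had none there. The inputs were the smallest libraries, with 3110323 to 3809355 reads each against 5522159 to 9922659 in the captured libraries. No share over all sequences of the table stands beside these counts, so they are not read as a trait of captured RNA. The authors' alignment settings are not given in the sources used here. No reference 45S sequence was used, so a differing base is a difference between fragments and not from the genome. The pairs below matched in start and end, and capitals mark the differing base.
Fragment 5747-5769 with the differing base: ctcggatcggccccCccggggtc
Fragment 5771-5787: gcccacggccctggcgg
Fragment 5771-5787 with the differing base: gGccacggccctggcgg

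The difference G5761C stood in 4 of the 44 fragments over position 5761. Of the reads of those 44 fragments it made up 5.39% in HOXB8 biotin (4.95% to 5.85%) and 2.91% in HOXB8 WGA (2.57% to 3.26%). The HOXB8 input had it in 0 of 3461 reads, which allows up to 0.0867%. In the differentiated HOXB8 libraries it made up 3.76% with PNGase F, 3.53% for biotin and 4.74% for WGA, against 0.0620% (3 of 4835 reads) in the input. The 5 captured libraries thus lay above both inputs, beyond the counting intervals. Neutrophils had 0 of 11 reads after WGA capture and 1 of 184 reads in the input, too few to tell.

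The difference C5772G stood in 7 of the 22 fragments over position 5772, always at their first or second base. Of the reads of those 22 fragments it made up 36.7% in HOXB8 biotin and 19.9% in HOXB8 WGA, against 0 of 38 reads in the input. With HOXB8 cells differentiated, it made up 28.8% with PNGase F, 44.5% for biotin and 0.230% for WGA, against 0 of 39 reads in the input. The inputs had so few reads that 0 allows a share of up to 7.89% in HOXB8 and 7.69% in differentiated HOXB8 cells. The differentiated HOXB8 WGA library stood far below the other 4 captured libraries, with 3 of 1302 reads. In neutrophils 1 read lay over the position after WGA capture and had the difference, and in the input 3 of 142 reads had it, 2.11% (0.438% to 6.05%).

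With and without PNGase F, the sums of the set differed by less than the counting error, while some sites differed by more. The set summed to 3434 RPM with PNGase F and 3420 RPM for biotin alone, a ratio of 1.00 (0.986 to 1.02). The stretch 5028-5140 was at 1198 and 1218 RPM, a ratio of 0.983 (0.954 to 1.01), and 5724-5802 was at 956 and 1034 RPM, a ratio of 0.925 (0.895 to 0.956). The stretch 4172-4258 was higher with PNGase F, at 398 RPM, against 202 RPM for biotin alone, a ratio of 1.97 (1.85 to 2.10). Stretch 4294-4415 was 2.18-fold lower (2.01 to 2.38), at 115 RPM with PNGase F and 251 RPM for biotin alone. Of 92 fragments at 10 RPM or more in either library, 21 were 2-fold higher and 25 lower with PNGase F, where 20.6% of all 5241 sequences were higher and 24.8% lower. The spread of single fragments between these 2 libraries of the same kind of cell is thus wide even where the sums are equal.

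Between captures, the sum was 6135 RPM for biotin and 8098 RPM for WGA in HOXB8 cells, a ratio of 0.758 (0.747 to 0.768). It was 3420 RPM for biotin and 2419 RPM for WGA in differentiated HOXB8 cells, a ratio of 1.41 (1.39 to 1.44). In HOXB8 cells 26 of 162 fragments were 2-fold higher for biotin and 73 lower, with 13.7% and 45.4% over all sequences. In differentiated HOXB8 cells 42 of 104 were higher and 34 lower, with 35.6% and 40.8% over all. The order of the captures was thus opposite in the 2 kinds of cell.

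Between kinds of cell, the inputs of differentiated HOXB8 and HOXB8 cells had 4099 and 3894 RPM, a ratio of 1.05 (1.03 to 1.08). As a share of the rRNA class the same inputs were at 0.872% and 1.88%, so the direction depended on the scale. Of all reads, 70.2% were in the table for the differentiated HOXB8 input and 39.3% for the HOXB8 input. Of 60 fragments 7 were 2-fold higher and 13 lower in differentiated HOXB8 cells, with 34.2% and 23.4% over all sequences. In the captured libraries the set was lower in differentiated HOXB8 cells on both scales. In RPM the ratio of differentiated HOXB8 to HOXB8 cells was 0.557 (0.549 to 0.566) for biotin and 0.299 (0.294 to 0.304) for WGA. The shares of the rRNA class were 0.591% and 1.504% for biotin and 0.443% and 1.74% for WGA. For biotin 17 of 113 were higher and 48 lower, with 27.5% and 37.8% over all. For WGA 23 of 153 were higher and 104 lower, with 29.9% and 55.9% over all.

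Neutrophils had a lower level of the set than differentiated HOXB8 cells at most sites. In the inputs 16 of the 23 stretches were at least 2-fold lower in neutrophils and 1 higher, and in the WGA libraries 14 were lower and 2 higher. No count over stretches of the rest of the table stands beside these, so they do not set the fragments apart from it. The sum was 464 RPM in the neutrophil input and 4099 RPM in the differentiated HOXB8 input, 8.83-fold lower. Of 47 fragments 3 were 2-fold higher and 42 lower in the neutrophil input, with 21.7% and 57.8% over all sequences. For WGA the sum was 3.98-fold lower in neutrophils, and of 78 fragments 12 were higher and 62 lower, with 27.9% and 67.9% over all. The rRNA class as a whole was higher in neutrophils, at 674460 RPM against 470281 RPM in the inputs and 720693 RPM against 545491 RPM for WGA. The set's share of that class was 0.0688% in the neutrophil input, against 0.872% in the differentiated HOXB8 input, and 0.0843% against 0.443% for WGA. RPM is a share of the library, so the number of cells and the amount of RNA per cell cannot be read from it.

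WGA against input was the comparison that could be tested, with 3 libraries on each side and the kind of cell as a block. The limma test on log2(RPM + 1) with Benjamini-Hochberg adjustment called 316 of 15874 sequences (1.99%). Of the 228 fragments of the set that were tested, 1 was called and 12 had an unadjusted p below 0.05, where 12.4% of all sequences did. The called fragment was 4840-4873, with a log2 change of -6.89 (SE 1.53) and limma's adjusted p of 0.00126, lower in 3 of 3 WGA libraries. On recovered whole reads its adjusted p was 0.0880 by edgeR's quasi-likelihood test and 8.46e-05 by DESeq2. Fragment 5328-5345 was higher in 2 of 3 WGA libraries (log2 change 4.003, SE 1.54, limma's adjusted p 0.188) and did not pass. No fragment was called by limma without the HOXB8 pair or without the differentiated HOXB8 pair, with 1 each at an unadjusted p below 0.05. Without the neutrophil pair 29 of 232 fragments were called, where 2246 of all 15301 sequences were.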

How the data were processed

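The deposited small RNA table gives each unique sequence in each library in RPM, scaled by the authors to the library's reads per the file headers. The build is mm10, per the submitters' processing notes. The aligner, trimming, filter and rule for placing a sequence on a record are not given in the sources used here. Steps between values gave whole reads in every library (100% of values within 0.01 of a whole number), from which counting intervals were made.

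Members are rows of the rRNA class on the 45S record with a start from 4008 to 5877, so positions are on that record and not on a chromosome. The members, lists and tests were chosen with earlier results of these data known. Named fragments are the 3 highest of each library, the 3 at each extreme of the captured-to-input ratio in a captured library (minimum of 100 RPM in either), those at each edge of the range, and those called. The stretches, the groups with a shared end, the differing bases and the fragments named for them were chosen after values were seen.

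Log2 ratios of single fragments use a pseudocount of 1 RPM. A fragment at 0 was set against a floor of 3 reads per library. WGA was tested against input with limma 3.58.1 (trend, kind of cell as block, mean of 1 RPM or more), and on whole reads with edgeR 4.0.16 and DESeq2 1.42.0, in R 4.3.3. The limma fit called 316 of 15874 sequences, edgeR 0 and DESeq2 2301. The limma step was tested on simulated data. Tables were made with Python 3.11.15 and pandas 2.3.3. Libraries of 1 kind of cell share no replicate, and p-values measure the spread between the 3 kinds of cell. Other alternatives were other scales, limits, pseudocounts and lengths.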

Additional observations from a re-analysis of the deposited data

Results flagged for a closer look

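The direction of the summed 18S level against input differed between kinds of cell. The log2 ratio of WGA to input was 1.06 in HOXB8 cells, -0.76 in differentiated HOXB8 cells and 0.39 in neutrophils. The log2 ratio of biotin to input was 0.66 in HOXB8 cells and -0.26 in differentiated HOXB8 cells. Each value rests on 1 library per group, so these differences between kinds of cell were not tested.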

How the results depend on the processing

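No paired analysis was possible by replicate number, because the small RNA columns carry none and each group is 1 library, and WGA and input were paired by kind of cell only. Log2 ratios to input follow in the order HOXB8 biotin, HOXB8 WGA, differentiated HOXB8 biotin with PNGase F, biotin and WGA, and neutrophil WGA. As a share of the table they were -0.57, -0.15, -0.67, -0.68, -1.22 and 0.36, which reversed both HOXB8 values. As a share of the rRNA class they were -0.32, -0.12, -0.56, -0.56, -0.97 and 0.29, with the same reversals. Without the 10 highest fragments of either library they were 0.72, 1.09, 0.33, 0.20, -0.16 and 0.30, which reversed differentiated HOXB8 biotin with and without PNGase F. With 20 bases or more they were 0.14, 0.29, -0.95, -0.83, -1.25 and 0.64. The number of distinct fragments gave 0.15, -0.014, -0.11, -0.073, -0.61 and -1.31, which reversed HOXB8 and neutrophil WGA. Without the stretch of highest sum, 5028-5140, an alternative chosen after seeing the data, they were 0.10, 0.33, -0.71, -0.73, -1.10 and 0.49. Requiring the end inside the range too could change nothing, because the last fragment ended at 5802 and the range ends at 5877. The cause was not tested.

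In the same order, with a minimum of 100 RPM, 6, 8, 2, 2, 2 and 1 fragments were 2-fold higher and 7, 7, 9, 9, 9 and 0 lower. A 4-fold limit left 3 lower in neutrophils. Rescaled to the table, 50 for HOXB8 biotin and 51 for HOXB8 WGA were lower, with 60 and 100 higher. Other pseudocounts kept all these counts within 1.5 times. The shares over all sequences are given above for the 10 RPM and 2-fold limits only. The counts at other settings thus do not set the fragments apart from the rest of the table. The leading 100-base bin of a library moved with the position used. By midpoint instead of start, that bin held 5.18% in HOXB8 biotin, 7.99% in HOXB8 WGA, 8.33% with PNGase F, 6.71% in differentiated HOXB8 biotin and 8.63% in differentiated HOXB8 WGA, and was within 1 percentage point of its value in the other 4 libraries. Without its most abundant fragment, the share was 20.47% in HOXB8 biotin, 25.8% in HOXB8 WGA and 24.6% in HOXB8 input. It was then 18.1% with PNGase F, 17.4% in biotin, 18.8% in WGA and 21.1% in input of differentiated HOXB8 cells, and 51.7% in neutrophil WGA and 36.3% in neutrophil input.

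Of the 228 fragments tested for WGA against input, edgeR called 0 (11 at an unadjusted p below 0.05) and DESeq2 13, all lower. Over all 15874 sequences edgeR called 0 and DESeq2 2301, of which 2246 were lower. Limma called 1 fragment under both other pseudocounts, without a filter, with a mean of 10 RPM or more and without the cell block. Leaving out 1 kind of cell gave 0 to 29 calls: 0 without HOXB8 cells and 0 without differentiated HOXB8 cells (1 each at an unadjusted p below 0.05), and 29 of 232 without neutrophils, 10 higher and 19 lower. Over all sequences the same fits called 128 of 11734, 5 of 13868 and 2246 of 15301 in this order. The median log2 change of all sequences was 0.87 by limma, -0.50 by edgeR and -1.01 by DESeq2, and that of the members 0.76, -1.06 and -1.18, so directions depend on the scaling. Neutrophil values rest on 1444 reads of the set in the input and 6031 in the WGA library, against 14586 to 44717 in the others, and 3 reads were 0.302 to 0.965 RPM.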
